A study of Danio rerio with 18 samples.

Results

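Skin ionocytes are the ion-transporting cells of the larval zebrafish epidermis, and 10 genes that encode their transporters, enzymes and regulators were described in whole-body RNAseq of sox10 mutants. The 10 genes were chosen by symbol, from their known roles in ionocyte types, and all of them were listed among the 25581 genes of the deposited tables. They are the ammonia channel gene rhcga, the carbonic anhydrase genes ca2 and ca15a, the sodium pump α-subunit genes atp1a1a.1 and atp1a1a.2, the chloride and bicarbonate cotransporter genes slc12a10.2 and slc4a4b, the calcium channel gene trpv6, and the forkhead factor genes foxi3a and foxi3b.

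Before gills are functional, fish larvae exchange ions with fresh water through ionocytes scattered in the skin. Proton-secreting cells expel acid and ammonia and take up sodium, cells with a Na-Cl cotransporter take up chloride, and NaR cells, which are rich in sodium pump, take up calcium through the channel Trpv6. All of these types arise from epidermal precursors under the control of Foxi3 factors and Notch signaling, and the sodium pump in their basolateral membrane supplies the gradient that drives transport. sox10 encodes a transcription factor best known from the neural crest, an embryonic cell population that does not give rise to these skin cells.

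Whole bodies of wild-type fish (genotype WT) were compared with those of sox10-/- mutants at 45 hours post-fertilization (hpf) and at a later stage. The later stage is labelled 4 days post-fertilization (dpf), with a limit given below, and there were 3 libraries per genotype and stage. Each library was made from a pool, of 10 to 25 wild types or 10 to 15 mutants at 45 hpf and of 10 to 15 wild types or 10 to 12 mutants at 4 dpf. The labels do not name the allele of the sequenced fish. The deletion allele that the study mainly uses lacks part of the 5′ untranslated region and the first coding exon but is still transcribed, the controls are described as stage-matched relatives of the mutants, and the labels give no treatment. The labels call the 3 libraries of a group biological replicates and do not say whether the pools came from separate crosses. In a whole-body pool, fewer ionocytes and less RNA per ionocyte cannot be told apart.

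The table deposited for 4 dpf was identical in all 25896 lines to that deposited for 7 dpf, so 12 of the 18 labelled libraries were analyzed and the second stage is called the 4 dpf table below. Whether its values belong to the 4 dpf or the 7 dpf pools could not be settled. The paper's own 4 dpf result differs for stc1l and pth1a, given below, and was not compared gene by gene. At the same thresholds, its count-based test found far fewer genes lower or higher in mutants than the 3249 and 269 called here. Its results for rhcga, ca2 and atp1a1a.1 are not given here. Pools at 7 dpf held 12 to 30 wild types or 7 to 18 mutants. Expression was given as TPM, a transcript abundance relative to the other transcripts of the library and corrected for length, and the number of reads behind a value is unknown. The mutated gene was no check of the labels, since sox10 stood at 9.47 to 14.0 TPM in wild types and 6.61 to 11.2 TPM in mutants at 45 hpf, and at 5.25 to 7.33 and 5.77 to 8.41 TPM in the 4 dpf table. Genes above 10000 TPM took up 16.5% to 19.2% of wild-type libraries but 24.6%, 28.4% and 41.0% of mutant libraries in the 4 dpf table, with the highest share in mutant replicate 1. In the 45 hpf table this share was 26% in mutant replicate 3 and 9.03% to 14.3% in the other 5 libraries. The median gene was also lower in mutants, by a log2 difference of -0.25 at 45 hpf and -0.33 in the 4 dpf table, and differences were also computed after median-of-ratios rescaling, which brought the medians to 0.0020 and 0.030. Genes that reached 1 TPM in 3 or more of the 6 libraries of a table were compared on log2(TPM + 1) with limma, a scale that understates the change of genes near 1 TPM. A gene was called at a Benjamini-Hochberg adjusted P of at most 0.05 over all tested genes and past the minimum fold change of the study.

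rhcga, ca2 and atp1a1a.1 were lower in sox10 mutants of the 4 dpf table, by 6.15-fold, 6.44-fold and 1.96-fold on mean TPM. No ionocyte gene of the 10 was called higher, 5 were tested and not called, and foxi3a and trpv6 lay too low to be tested. The 3 of 8 tested genes called lower stood beside 18.8% of all 17291 tested genes called lower and 1.56% called higher. After rescaling, 0 of the 10 were called, beside 0.156% of tested genes lower and 0.0810% higher, where 4 had lower values at an unadjusted P under 0.05 beside 21.0% of all tested genes. Without rescaling 5 did, beside 38.2%. In 6 of the 10, every mutant library was below every wild-type library, a pattern found in 42.8% of tested genes. The median log2 difference of the 8 tested ionocyte genes was -0.76 beside -0.33 for all genes, and -0.41 beside 0.030 after rescaling.

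**Figure D1:**
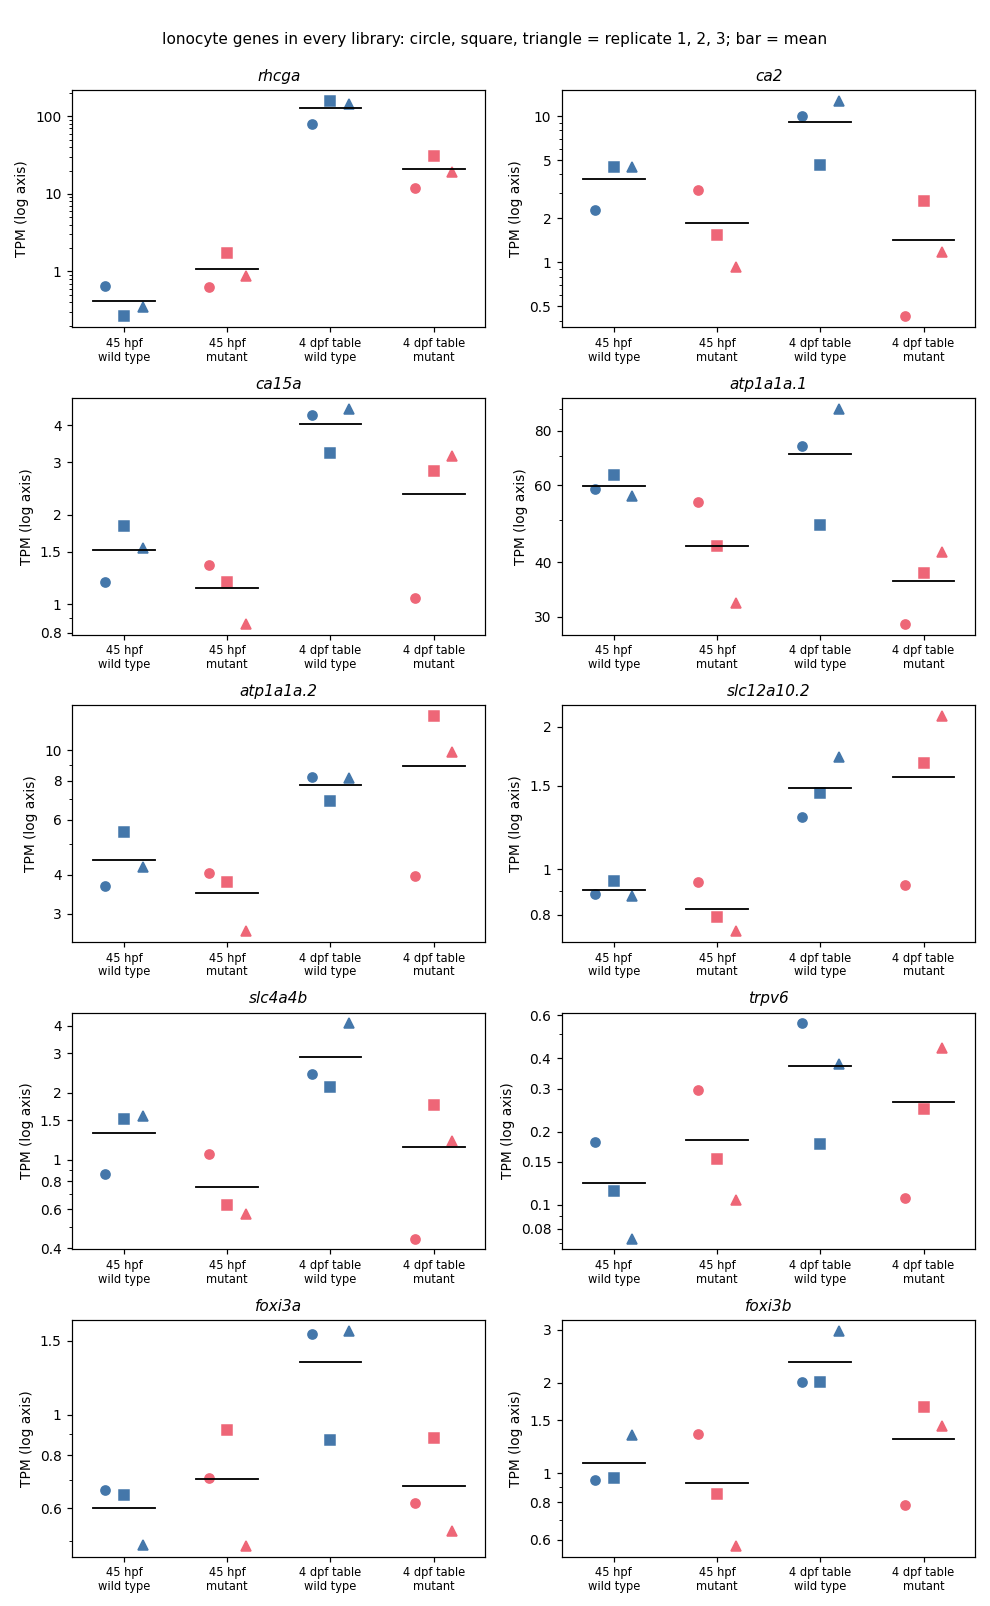
Expression (TPM, log axis) of the 10 ionocyte genes in each of 12 libraries, grouped by table and genotype, with blue for wild types, red for sox10 mutants and a bar at the mean of 3 libraries. In the 4 dpf table, the mutant points of rhcga, ca2, ca15a, atp1a1a.1, slc4a4b and foxi3b all lie below the wild-type points, whereas those of the other 4 genes overlap.

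Among the tested ionocyte genes, rhcga and ca2 held the largest differences in the 4 dpf table. The class of acid and ammonia handling did not do so as a whole, since ca15a differed less than atp1a1a.1 and slc4a4b. rhcga (ENSDARG00000003203) encodes an Rh glycoprotein, a family of membrane channels for ammonia. Its expression in the 4 dpf table was 79.1, 157 and 146 TPM in wild-type replicates 1, 2 and 3 and 12.1, 31.0 and 19.05 TPM in mutant replicates 1, 2 and 3. The lowest wild-type library was above the highest mutant library. The log2 difference of -2.60 ± 0.38 (SE, limma adjusted P = 0.0431, n = 3 per genotype) was the 51st lowest among 17291 tested genes. Relative to the median gene the difference was -2.27, and after rescaling it was -2.17 ± 0.35 at an adjusted P of 0.0556, outside the threshold.

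Carbonic anhydrases interconvert CO2 and bicarbonate and so supply protons for secretion. The cytosolic enzyme gene ca2 (ENSDARG00000014488) stood at 10.0, 4.64 and 12.6 TPM in wild types and 0.427, 2.64 and 1.17 TPM in mutants of the 4 dpf table. The genotypes did not overlap, and the log2 difference was -2.08 ± 0.43 (SE, limma adjusted P = 0.0431), or -1.79 ± 0.38 at an adjusted P of 0.0556 after rescaling. The membrane-linked enzyme gene ca15a (ENSDARG00000015654) was listed at 4.31, 3.22 and 4.55 TPM in wild types and 1.05, 2.80 and 3.16 TPM in mutants. Its mutant replicate 3 was just under the lowest wild type, and its log2 difference of -0.65 ± 0.29 was not called (limma adjusted P = 0.133, or -0.34 at 0.296 after rescaling). The ratio of ca2 to ca15a within a library was 2.32, 1.44 and 2.78 in wild types and 0.408, 0.942 and 0.372 in mutants. These ratios did not overlap either, with a two-sided exact permutation p of 0.1, the smallest that 3 libraries against 3 can give. The scaling of a library cancels in this ratio, but other differences between libraries do not. ca2 ranked the libraries much as their median-of-ratios factor did, and both were lowest in mutant replicate 1, at 0.427 TPM and a factor of 0.702. At 45 hpf the orders by ca2 and by the factor were the same, and the ratio overlapped (two-sided exact permutation p = 0.2). The part of such library differences in the values of ca2 was not tested.

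Of the sodium pump genes of the same chromosomal array, atp1a1a.1 was called and atp1a1a.2 was not. atp1a1a.1 (ENSDARG00000002791), a pump α-subunit gene that is also used in the heart, stood at 74.0, 48.8 and 90.0 TPM in wild types and at 28.9, 37.8 and 42.2 TPM in mutants. All mutants were below all wild types, with a log2 difference of -0.92 ± 0.25 (SE, limma adjusted P = 0.0466), which was -0.49 ± 0.20 at an adjusted P of 0.113 after rescaling. Its neighbor atp1a1a.2 (ENSDARG00000007739) stood at 8.21, 6.88 and 8.13 TPM in wild types and at 3.96, 12.9 and 9.86 TPM in mutants. The mutant libraries spanned the wild types, with mutant replicate 1 lowest of all 6, and the log2 difference of 0.058 ± 0.36 was not called (limma adjusted P = 0.913). After rescaling the difference of atp1a1a.2 was 0.44 ± 0.27 (adjusted P = 0.256). The ratio of atp1a1a.1 to atp1a1a.2 was 9.02, 7.09 and 11.1 in wild types and 7.30, 2.93 and 4.27 in mutants, and it overlapped (two-sided exact permutation p = 0.2), so the pair was not shown to differ from each other. A further gene of the array, atp1a1a.4, had all mutants below all wild types, at 56.0, 49.1 and 44.6 against 13.0, 41.0 and 35.05 TPM, and was not called (log2 difference -0.87 ± 0.39, limma adjusted P = 0.134). The genes atp1a1a.1 to atp1a1a.5 are close copies in tandem, and reads shared among them could be divided between them during quantification, so the split within the array is uncertain.

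Neither of the cotransporter genes of chloride-absorbing cells was called in the same table. slc4a4b (ENSDARG00000044808), which encodes the basolateral sodium-bicarbonate cotransporter, was at 2.43, 2.11 and 4.10 TPM in wild types and at 0.443, 1.76 and 1.22 TPM in mutants. The genotypes did not overlap, and the log2 difference of -0.88 ± 0.30 was not called (limma adjusted P = 0.0687). slc12a10.2 (ENSDARG00000071173), which encodes the apical Na-Cl cotransporter, was at 1.29, 1.45 and 1.72 TPM in wild types and at 0.924, 1.67 and 2.11 TPM in mutants. Here mutant replicate 1 was the lowest library and mutant replicate 3 the highest, with a log2 difference of 0.022 ± 0.21 (limma adjusted P = 0.944) that was 0.27 ± 0.17 after rescaling. The ratio of slc4a4b to slc12a10.2 was 1.88, 1.46 and 2.38 in wild types and 0.479, 1.05 and 0.577 in mutants, without overlap (two-sided exact permutation p = 0.1). Since 3 libraries against 3 can give no smaller p, the test could not show that the pair differed from each other. slc12a10.2 lies beside its copies slc12a10.1 and slc12a10.3, as ca15a lies beside ca15b and ca15c, and reads shared with them could shift both values.

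trpv6 (ENSDARG00000014496), the epithelial calcium channel gene of NaR cells, was the lowest of the 10 genes in every group. It stood at 0.556, 0.178 and 0.378 TPM in wild types and 0.107, 0.247 and 0.442 TPM in mutants of the 4 dpf table, and the genotypes overlapped. No library reached 1 TPM, so the gene was untested in the main comparison. With no filter its log2 difference was -0.11 (limma adjusted P = 0.565), and the two-sided exact permutation p of its 6 values was 0.5. No difference of trpv6 between genotypes was detected at these low levels. By rt-PCR the paper also saw no overt whole-body change of trpv6 at 4 dpf. Its in situ hybridizations did show fewer trpv6-positive and igfbp5a-positive cells in mutants.

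Foxi3 factors specify ionocyte precursors. foxi3b (ENSDARG00000009550) stood at 2.01, 2.01 and 2.98 TPM in wild types and 0.785, 1.67 and 1.44 TPM in mutants. All mutants were below all wild types, and the log2 difference of -0.55 ± 0.22 was not called (limma adjusted P = 0.0990, or -0.28 at 0.250 after rescaling). foxi3a (ENSDARG00000055926) stood at 1.55, 0.870 and 1.58 TPM in wild types and 0.618, 0.880 and 0.531 TPM in mutants. Mutant replicate 2 was above the lowest wild type, and without the filter the log2 difference was -0.47 (limma adjusted P = 0.103).

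**Figure D2:**
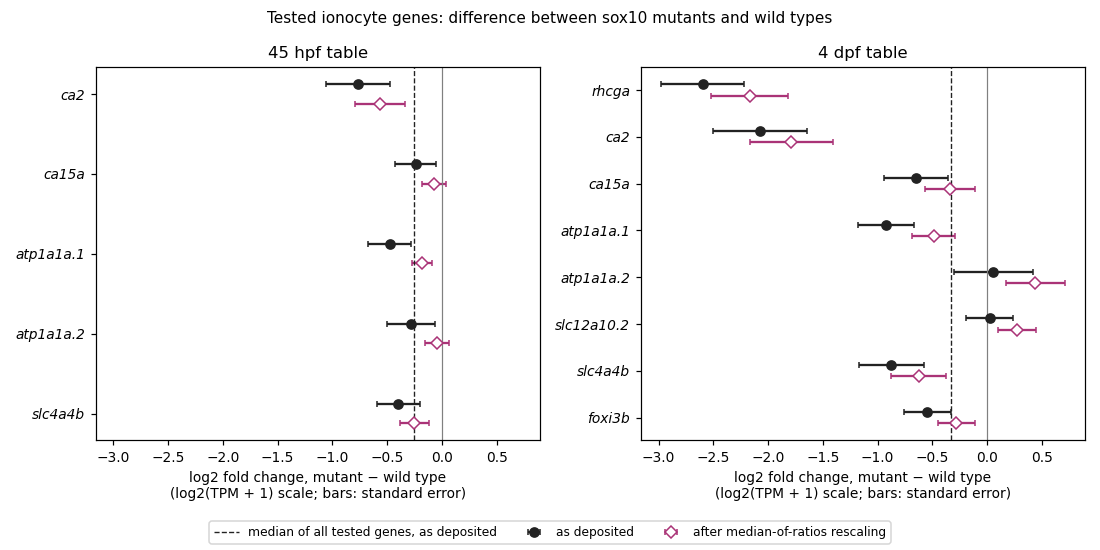
Log2 difference between sox10 mutants and wild types (horizontal axis, log2(TPM + 1) scale, bars for the standard error) of the ionocyte genes tested in the 45 hpf table (left) and the 4 dpf table (right). Filled circles are deposited values, open diamonds are rescaled values and the dashed line is the median of all tested genes. rhcga and ca2 lie farthest below the line in the 4 dpf table, and rescaling moves the differences toward higher values.

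These calls rested on the libraries chosen. Without wild-type replicate 1, wild-type replicate 3, mutant replicate 1 or mutant replicate 3, 0 of the 10 genes were called in the 4 dpf table, while the calls over all genes fell to 2, 6, 10 and 4 lower genes. Without wild-type replicate 2, 3 of the 10 were called lower, beside 17.5% of all tested genes, and without mutant replicate 2, 4 of the 10 were, slc4a4b included, beside 32.7%. The log2 difference of rhcga stayed between -2.93 and -2.28 in these 6 fits, at adjusted P between 0.00574 and 0.165, and that of ca2 between -2.45 and -1.75.

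At 45 hpf, 0 of the 10 genes were called, beside 0.499% of 17043 tested genes called lower and 0.0587% called higher, and again 0 after rescaling, beside 0.469% and 0.153%. Of the 10, 5 passed the filter, and all 5 had negative log2 differences, with a median of -0.40 beside -0.25 for all genes and of -0.18 beside 0.0020 after rescaling. The share of all genes with a negative difference is not given here. With no filter, the untested rhcga, foxi3a and trpv6 had positive differences of 0.53, 0.086 and 0.075, and slc12a10.2 and foxi3b had negative ones of -0.063 and -0.13. Of the 5 tested genes, 2 (ca2 and atp1a1a.1) had an unadjusted limma P under 0.05, or 1 after rescaling, beside 20.2% of all tested genes lower at that P, or 11.9% after rescaling. atp1a1a.1 stood at 59.0, 63.5 and 56.8 TPM in wild types and 55.1, 43.5 and 32.2 TPM in mutants. It was the only gene of the 10 whose genotypes did not overlap, a pattern that 23.7% of tested genes showed in this direction, and its log2 difference was -0.48 ± 0.19 (limma adjusted P = 0.202), or -0.18 ± 0.09 after rescaling (adjusted P = 0.273). ca2 stood at 2.29, 4.48 and 4.46 TPM in wild types and 3.12, 1.54 and 0.929 TPM in mutants. Its mutant replicate 1 was above wild-type replicate 1, and its log2 difference was -0.76 ± 0.29 (limma adjusted P = 0.188).

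The other tested genes at 45 hpf were ca15a, atp1a1a.2 and slc4a4b, whose log2 differences were -0.24, -0.28 and -0.40 at limma adjusted P of 0.433, 0.432 and 0.256. rhcga was still low at this stage, at 0.646, 0.263 and 0.347 TPM in wild types and 0.637, 1.75 and 0.870 TPM in mutants. Mutant replicates 2 and 3 were above all wild types and mutant replicate 1 was not, and the gene was untested. foxi3b stood between 0.947 and 1.33 TPM in wild types and 0.573 and 1.35 TPM in mutants, foxi3a between 0.491 and 0.661 TPM and 0.488 and 0.919 TPM. slc12a10.2 lay between 0.739 and 0.946 TPM in all 6 libraries, and trpv6 between 0.0728 and 0.296 TPM. Leaving out mutant replicate 1 brought ca2 (adjusted P = 3.65e-04) and atp1a1a.1 (adjusted P = 0.00521) past the threshold, but also raised the calls over all genes from 85 to 5166 lower genes. With any other library left out, 0 of the 10 were called.

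Between the tables, ca2, ca15a, slc4a4b and foxi3b were higher in wild types of the 4 dpf table than in those at 45 hpf, by 1.04, 0.99, 0.72 and 0.67 on the log2 scale, at limma adjusted P over all 12 libraries of 0.0407, 0.00347, 0.0261 and 0.0115. atp1a1a.2 (0.69, adjusted P = 0.0687) was called after rescaling (0.78, adjusted P = 0.00693), and atp1a1a.1 was not called (0.20, adjusted P = 0.474). Mean wild-type TPM of rhcga was 305-fold higher in the 4 dpf table, a log2 difference of 6.45. rhcga passed the joint filter, of 1 TPM in at least 6 of 12 libraries, only through the 4 dpf table, so its difference is a description and no test of it is read. With rhcga, 5 genes were called higher and 0 lower, beside 25.5% of 17403 tested genes higher and 37.9% lower, and the 6 called higher after rescaling beside 30.8% and 36.8%. In 8 of the 10, all wild types of the 4 dpf table were above all wild types at 45 hpf, the exceptions being atp1a1a.1 and trpv6, beside 30.3% of all tested genes. Of these 8, slc12a10.2 and foxi3a were themselves untested. The stage cannot be told apart from the table in which it was deposited. Without wild-type replicate 3 of the 4 dpf table, 2 of the 10 were called higher, and without wild-type replicate 1 at 45 hpf, 3 were. The shares of all genes called in those fits are not given here, so these counts have no background beside them.

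The order of the genes shifted with the table, as read from mean TPM. Wild types at 45 hpf were led by atp1a1a.1 at 59.7 ± 3.41 TPM (SD, n = 3), followed far below by atp1a1a.2 at 4.47 ± 0.93 and ca2 at 3.74 ± 1.26 TPM, which overlapped each other. ca15a, slc4a4b and foxi3b, at 1.52, 1.32 and 1.08 TPM, each overlapped the next, and rhcga was ninth at 0.419 ± 0.201 TPM. In wild types of the 4 dpf table rhcga was highest at 128 ± 42.2 TPM and overlapped atp1a1a.1 at 70.9 ± 20.8 TPM, with ca2 and atp1a1a.2 next at 9.10 and 7.74 TPM. In mutants of that table, atp1a1a.1 at 36.3 ± 6.76 TPM and rhcga at 20.7 ± 9.57 TPM had changed places and overlapped. ca2, the third gene in wild types, was the sixth in mutants at 1.41 ± 1.13 TPM, where ca15a, slc12a10.2, ca2, foxi3b and slc4a4b each overlapped the next.

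The genotype difference was also set against itself between the tables, in 7 of the 10 genes. For ca2 the difference in the 4 dpf table minus that at 45 hpf was -1.31 ± 0.57 on the log2 scale (limma interaction term, adjusted P = 0.311), for ca15a -0.41, for atp1a1a.1 -0.44, for atp1a1a.2 0.34, for slc4a4b -0.48 and for foxi3b -0.42, none of them called. For rhcga it was -3.13 ± 0.47, and -2.70 after rescaling. This value is a description, since rhcga entered the joint fit only through the 4 dpf table and stood under 1 TPM in 5 of the 6 libraries at 45 hpf. rhcga was the only one of the 10 past the threshold, beside 0.121% of tested genes lower and 0.144% higher, or 0.126% and 0.230% after rescaling. When each of the 12 libraries was left out in turn, its value ranged from -3.45 to -2.81, and it was outside the threshold in 7 of these fits, those without replicates 2 or 3 of the wild types or mutants at 45 hpf, replicates 2 or 3 of the wild types of the 4 dpf table, or mutant replicate 3 of that table.

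Within the Rh family the share of rhcga differed as well. Of the summed TPM of rhcga, rhcgb, rhbg and rhcgl1, rhcga made up 52.1%, 63.2% and 56.5% in wild types of the 4 dpf table and 41.0%, 38.4% and 37.6% in the mutants. The shares did not overlap, and rhcga was thus lower relative to its own relatives in all 3 mutant libraries. At 45 hpf rhbg led instead, with 71.7% ± 4.92 of the sum in wild types and 62.8% ± 10.9 in mutants (SD, n = 3), and rhcga made up 12.1% ± 6.93 and 22.8% ± 8.28. In the sodium pump array, atp1a1a.1 held 83.1% ± 0.83 of the summed TPM in wild types and 79.1% ± 0.69 in mutants at 45 hpf, also without overlap. In the 4 dpf table its share was 53.0% ± 8.23 and 48.9% ± 10.9, and atp1a1a.4, with 9.57% ± 0.41 in wild types at 45 hpf, held 38.5% ± 7.57.

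**Figure D3:**
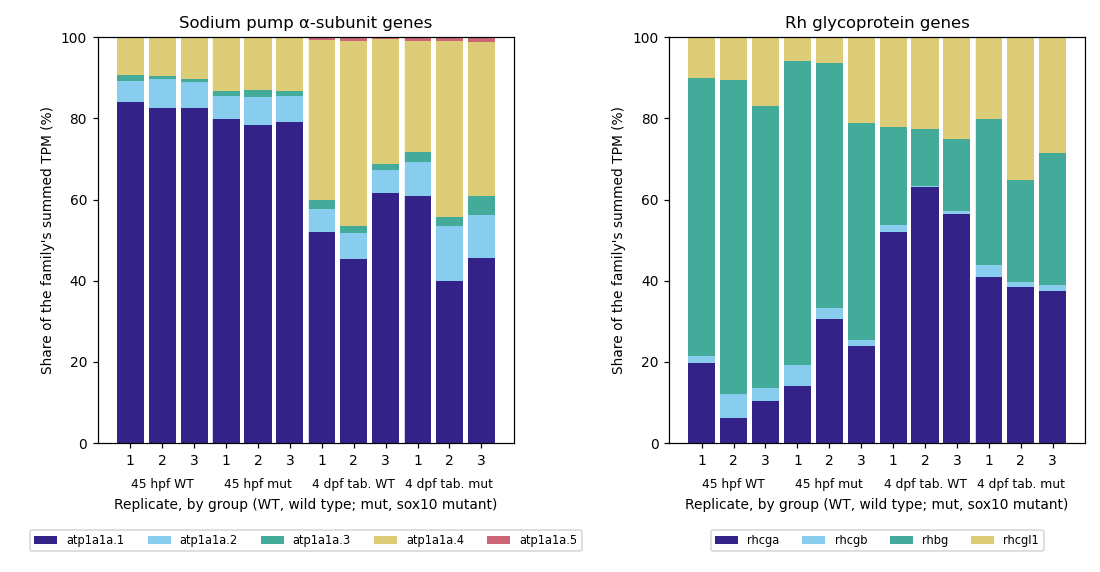
Share (%) of each gene in the summed TPM of its family, for the 5 tandem sodium pump α-subunit genes (left) and 4 Rh glycoprotein genes (right), in each of 12 libraries. The share of rhcga in the 4 dpf table lies at 52.1% to 63.2% in wild types and 37.6% to 41.0% in mutants, and atp1a1a.4 has a larger share in the 4 dpf table than at 45 hpf.

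Skin as a whole was represented by 11 epidermis markers found in the tables, all of them tested, mostly keratin, claudin and cell adhesion genes. They summed to 5124, 8373 and 8435 TPM in wild types and 2252, 7401 and 4585 TPM in mutants of the 4 dpf table, with mutant replicate 1 lowest. Most of this sum was keratin, with krt4, krt5, cyt1 and krt91 at wild-type means of 1372, 768, 2510 and 2422 TPM. The claudin and cell adhesion genes weighed little in it. Of the 11, 2 (cldnb and evpla) were called lower and 0 higher in that table, beside 18.8% and 1.56% of all tested genes, and 0 after rescaling. The median log2 difference of the markers was -0.78 beside -0.33 for all genes, and -0.36 beside 0.030 after rescaling. The tested ionocyte genes had similar medians, of -0.76 and -0.41. In 5 of the 11 markers all mutants were below all wild types, beside 42.8% of tested genes. At 45 hpf 0 of the markers were called, and their sums overlapped. Their part in the lower ionocyte values was not tested, but each ionocyte gene was divided by the summed markers of its library, a measure chosen after the values were seen. Per 1000 TPM of these markers, rhcga stood at 15.4, 18.7 and 17.4 TPM in wild types and 5.37, 4.19 and 4.15 TPM in mutants, on average 3.76-fold higher in wild types. ca2 stood at 1.96, 0.554 and 1.497 TPM in wild types and 0.190, 0.357 and 0.256 TPM in mutants. Both remained without overlap between genotypes (two-sided exact permutation p = 0.1). By contrast atp1a1a.1, at 14.45, 5.82 and 10.7 TPM in wild types and 12.8, 5.11 and 9.19 TPM in mutants, overlapped (exact permutation p = 0.7), as did ca15a, slc4a4b, foxi3b, foxi3a, trpv6 and slc12a10.2. atp1a1a.2 was above the wild types in all 3 mutants, at 1.76, 1.74 and 2.15 TPM against 1.60, 0.822 and 0.964 TPM. The share of all genes without overlap on this measure is not known, so rhcga, ca2 and atp1a1a.2 were not shown to stand out by it.

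**Figure D4:**
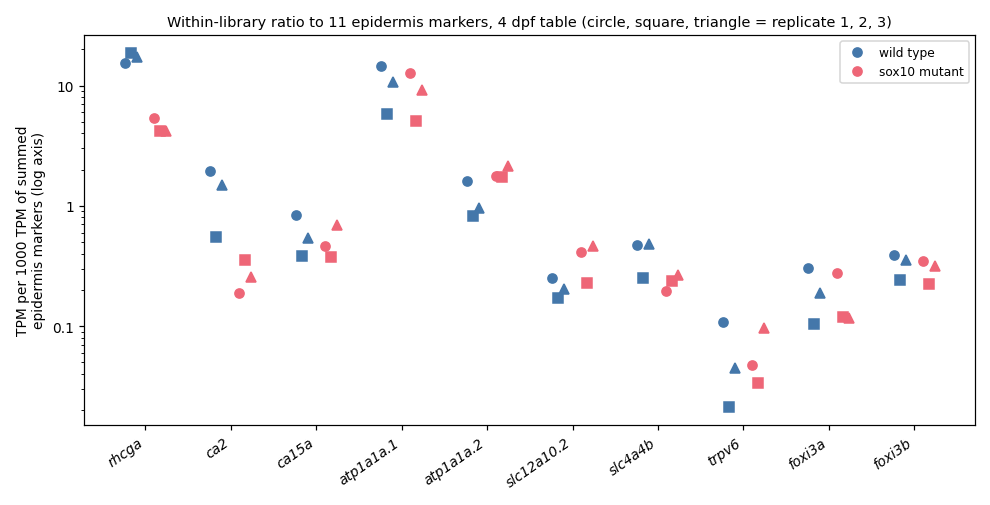
Expression of each ionocyte gene per 1000 TPM of the summed 11 epidermis markers of the same library (log axis), in wild types (blue) and sox10 mutants (red) of the 4 dpf table, with 3 libraries each. rhcga and ca2 are lower in all mutants, atp1a1a.2 is higher in all mutants, and the other 7 genes overlap.

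Several ionocyte transporters are also used by the pronephros, the larval kidney. Its 11 listed markers summed to 57.9 to 63.3 TPM in wild types and 47.8 to 62.9 TPM in mutants of the 4 dpf table, and to 69.8 to 82.5 and 57.1 to 84.0 TPM at 45 hpf. Of those tested in the 4 dpf table, 0 were called lower and 1 (trpm7) higher, beside 18.8% and 1.56% of all tested genes, and 0 were called at 45 hpf. The overlap of the sums in the 4 dpf table rested on trpm7. Without trpm7 the other 10 markers summed to 43.4, 45.2 and 50.8 TPM in wild types and 23.5, 36.7 and 39.6 TPM in mutants, with all mutants lower. That separation rested in turn on pdzk1. It stood at 9.09, 16.1 and 14.3 TPM in wild types and 1.56, 5.555 and 7.42 TPM in mutants. Of the 11 markers, 3 (cdh17, cubn and pdzk1) had all mutants below all wild types, a pattern found in 42.8% of tested genes, though cubn itself was untested. In 1, trpm7, all mutants were above all wild types. pdzk1 had a log2 difference of -1.41 (limma adjusted P = 0.0591). Mean TPM of slc12a3, slc20a1a and slc13a3 was higher in mutants, at 2.75, 2.21 and 1.46 against 2.17, 1.94 and 1.35 in wild types. The part of the pronephros in the lower ionocyte values was not tested. The 5 listed gill and pharyngeal markers summed to 366 to 509 TPM in wild types and 158 to 694 TPM in mutants of the 4 dpf table, with 1 (the parathyroid hormone gene pth1a) called higher and 0 lower. Most of this sum was the keratin gene krt17. Without it, sums of the other 4 markers were higher in mutants (13.8 to 24.0 TPM) than in wild types (6.25 to 9.74 TPM). This higher sum rested on pth1a, with a mutant mean of 12.6 TPM against a wild-type mean of 1.50 TPM. The paper's own count-based test at 4 dpf did not call pth1a. The mean of gcm2 was lower in mutants, at 1.06 against 1.30 TPM, with overlap. tlx3b and fgf10a had all mutants below all wild types. The paper places parathyroid hormone expression of zebrafish in sensory neuromasts and the central nervous system. Whether these sums follow the amount of gill tissue was not tested. The 7 red blood cell markers, which bear on carbonic anhydrase as blood cells hold such enzymes too, summed to 173 to 336 TPM in wild types and 169 to 378 TPM in mutants, with 0 called. No marker of these lists was under 0.1 TPM in all libraries of a group.

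A further 47 genes of ionocyte function and development were listed, of which 30 were tested in the 4 dpf table. Of these 30, 6 were called lower and 0 higher, beside 18.8% and 1.56% of all tested genes. After rescaling 0 were called, and 6 lower and 6 higher genes had an unadjusted limma P under 0.05, beside 21.0% and 19.2% of all tested genes. The median log2 difference of the 30 genes was -0.31 beside -0.33 for all genes, and 0.016 beside 0.030 after rescaling. Of the 8 genes of acid secretion and ammonia transport, the Rh genes rhbg and rhcgl1 were called lower. rhbg stood at 36.4, 34.6 and 45.4 TPM in wild types and 10.6, 20.3 and 16.5 TPM in mutants, a log2 difference of -1.28 ± 0.24 (limma adjusted P = 0.0431). rhcgl1 stood at 33.7, 56.4 and 65.2 TPM in wild types and 5.95, 28.4 and 14.45 TPM in mutants, a log2 difference of -1.80 ± 0.51 (limma adjusted P = 0.0482). Neither overlapped between genotypes, a pattern found in 42.8% of tested genes. The other Rh gene, rhcgb, overlapped and was not called (log2 difference -0.46, limma adjusted P = 0.273).

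Of the 5 other sodium pump genes, the β-subunit gene atp1b1b was called lower. It stood at 35.7, 18.8 and 36.4 TPM in wild types and 7.06, 19.2 and 7.28 TPM in mutants, a log2 difference of -1.45 ± 0.41 (limma adjusted P = 0.0485), with mutant replicate 2 above the lowest wild type. Of 8 genes of calcium transport and NaR signaling, the sodium-calcium exchanger gene slc8a1b and the insulin-like growth factor receptor gene igf1ra were called lower. slc8a1b stood at 4.25, 2.10 and 5.69 TPM in wild types and 0.591, 1.76 and 0.631 TPM in mutants (log2 difference -1.31, limma adjusted P = 0.0440), without overlap. Among mutants only replicate 2 reached 1 TPM, and with no filter the limma adjusted P of slc8a1b was 0.0631. igf1ra stood at 1.96, 1.37 and 4.02 TPM in wild types and 0.292, 0.734 and 0.372 TPM in mutants (log2 difference -1.17, limma adjusted P = 0.0433), also without overlap. Although counted among the 6 called lower, igf1ra reached 1 TPM in wild types only and passed the filter through them. Its call is therefore a description and is not read as a test, and with no filter the limma adjusted P was 0.062. Of 12 regulators, the nuclear receptor gene esrra was called lower, at 7.95, 3.58 and 10.6 TPM in wild types and 0.670, 2.74 and 1.36 TPM in mutants (log2 difference -1.67, limma adjusted P = 0.0431). slc8a1b, igf1ra and esrra are also expressed outside ionocytes. None of the 12 chloride and potassium transport genes and neither accessory gene was called, and after rescaling the 6 genes had adjusted P from 0.0556 to 0.0759.

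**Figure D5:**
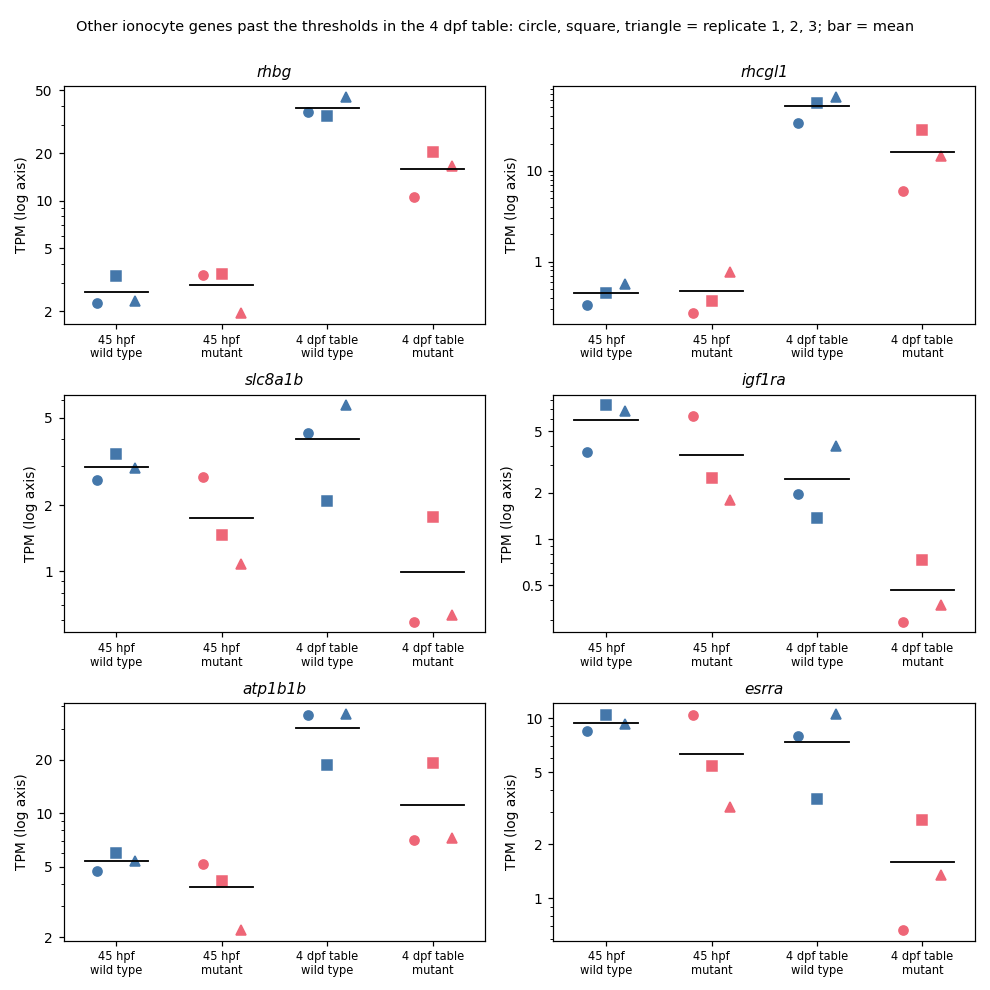
Expression (TPM, log axis) in 12 libraries of the 6 further ionocyte genes called lower in mutants of the 4 dpf table, with blue for wild types, red for sox10 mutants and a bar at the mean of 3 libraries. Mutant points lie below all wild-type points of that table except for atp1b1b, where mutant replicate 2 reached 19.2 TPM.

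The calls of these 6 genes shared the limits of the others. Leaving out wild-type replicate 1, wild-type replicate 3, mutant replicate 1 or mutant replicate 3 ended all of them, and 8 of the 47 were called lower without mutant replicate 2, beside 32.7% of all tested genes.

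At 45 hpf, 23 of the 47 were tested. Of these, 0 were called lower, beside 0.499% of all tested genes, and 5 were lower at an unadjusted limma P under 0.05, beside 20.2%. Only 1, stc1l, was called higher, beside 0.0587% of all tested genes. stc1l encodes stanniocalcin, a hormone of the corpuscles of Stannius that restrains calcium uptake by NaR cells, and is not itself an ionocyte gene. It was at 0.672, 0.254 and 0.388 TPM in wild types and 2.87, 3.58 and 1.32 TPM in mutants at 45 hpf, a log2 difference of 1.27 ± 0.25 (limma adjusted P = 0.0419, or 0.0505 after rescaling). The call was lost without any 1 of the 3 mutant libraries. At 45 hpf stc1l reached 1 TPM in mutants only and passed the filter through them, so its call is a description and is not read as a test. With no filter it was not called (limma adjusted P = 0.162). The log2 difference of stc1l in the 4 dpf table was 0.74 ± 0.26 (limma adjusted P = 0.0754), again with all mutants above all wild types. The paper's own count-based test at 4 dpf called stc1l higher in mutants, with a larger log2 difference on another scale. Among the 12 regulators, the Notch receptor gene notch1a was called lower at 45 hpf after rescaling but not before. notch1a stood at 102, 118 and 104 TPM in wild types and 74.0, 53.5 and 45.2 TPM in mutants, with a rescaled log2 difference of -0.62 ± 0.09 (limma adjusted P = 0.0343, or 0.0551 before rescaling).

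igfbp5a, an insulin-like growth factor binding protein gene used as a marker of NaR cells, was untested in both tables. It stood in the 4 dpf table at 0.517, 0.785 and 0.882 TPM in wild types and 0.0944, 0.584 and 0.0764 TPM in mutants, where mutant replicate 2 overlapped the wild types and the other mutants were far below them. At 45 hpf it stood between 0.271 and 0.420 TPM in wild types and between 0.131 and 0.595 TPM in mutants. foxi1, a forkhead gene related to foxi3a and foxi3b, was not called at 45 hpf (log2 difference -0.19, limma adjusted P = 0.577) and was untested in the 4 dpf table, where all 6 libraries were between 0.144 and 0.518 TPM. gcm2, a transcription factor gene of proton-secreting cells and pharyngeal tissue, was not called in the 4 dpf table (log2 difference -0.16, limma adjusted P = 0.552) and was untested at 45 hpf.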

How the data were processed

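Poly(A)-selected RNA from whole-body pools was sequenced by the authors on an Illumina NovaSeq, trimmed with Trimmomatic 0.39 and quantified with Kallisto on the Galaxy platform, according to the study's methods and the submitters' processing notes, which name the build GRCz11 and no version of Kallisto. The deposited values are TPM per gene and library, scaled within a library with no stated scaling between libraries. TPM keep no read counts, so the depth is unknown, no counting interval is given, and precision rests on 3 libraries per group. Library sums lay between 934603 and 953131. The authors' DESeq2 test needs counts and was not repeated. The 315 lines that repeat a gene were dropped.

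Groups and replicate numbers follow the labels. log2(TPM + 1) was fitted with limma 3.58.1 in R 4.3.3 (lmFit, eBayes with trend) on genotype within each table, and on one mean per group over 12 libraries for the comparison of tables and the interaction. Filters were 1 TPM in at least 3 of 6 or 6 of 12 libraries, and thresholds were those of the study, an adjusted P of at most 0.05 and 1.25-fold. Exact permutation tests (two-sided) were added for single genes. The fit was tested on simulated data. Other steps used Python 3.11.15, pandas 2.3.3 and matplotlib 3.10.9. Gene order was read from a RefSeq table of another build, so no positions are given.

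The 10 genes, the lists and the tests were chosen with earlier results of these data known. The text names the 10 genes, listed ionocyte genes past the thresholds in either table, igfbp5a, stc1l, foxi1, gcm2, sox10, and for foxi3b and trpv6 the 5 genes most like them in expression. notch1a, which passed only in other settings, atp1a1a.4, the marker genes named, and the marker sums without trpm7 or krt17 were chosen after their values were seen. Of the marker genes, slc12a1, krtt1c19e and trpc6 were not found by symbol and were not analysed here.

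Each result was recomputed with quantile normalization, median-of-ratios rescaling or without genes above 10000 TPM, with no filter or a minimum mean of 5 TPM, with a pseudocount of 0.1, with robust eBayes, with a replicate block, and without each library.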

Additional observations from a re-analysis of the deposited data

Results flagged for a closer look

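The genotype difference of rhcga took different values in the 2 tables. In the 4 dpf table minus the 45 hpf table it was -3.13 on the log2 scale (limma interaction term), with 3 of 3 mutant libraries below the wild types in the 4 dpf table and 2 of 3 above them at 45 hpf, where levels did not exceed 1.75 TPM. The gene entered the joint fit only through the 4 dpf table, so the value is a description, and it was outside the threshold in 7 of the 12 fits with a library left out. No cause was tested, and stage cannot be told apart from table. Groups of 3 libraries are too small for a test of single outlying libraries.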

How the results depend on the processing

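The calls in the 4 dpf table depended on the processing. The 3 ionocyte genes called lower became 0 with a pseudocount of 0.1, with no filter, after median-of-ratios rescaling, and after removal of genes above 10000 TPM. Over all tested genes, the 18.8% called lower became 0.156% after median-of-ratios rescaling. The shares of all genes in the other settings are not given here. The 6 further ionocyte genes called lower became 0 under the same 4 settings and 1 with a minimum mean of 5 TPM or quantile normalization, which also called 2 higher. At 45 hpf, the 0 further genes called lower became 1 after median-of-ratios rescaling, quantile normalization or robust eBayes. The 1 called higher became 0 with a pseudocount of 0.1, no filter, a minimum mean of 5 TPM, median-of-ratios rescaling or removal of genes above 10000 TPM. The 5 ionocyte genes higher in wild types of the 4 dpf table became 3 with a pseudocount of 0.1 and 1 with a minimum mean of 5 TPM, for which fewer of the genes were tested. The causes of the other changes were not tested. The interaction of rhcga, a description, lay between -3.81 and -2.70 under the 8 settings other than leaving out a library.

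With each library left out in turn, ionocyte genes called lower ranged from 0 to 2 at 45 hpf and from 0 to 4 in the 4 dpf table, and further ionocyte genes called lower from 0 to 9 and from 0 to 8. The share of all tested genes called lower moved as well, from 0.200% to 31.0% at 45 hpf and from 0.0121% to 32.7% in the 4 dpf table. Further ionocyte genes called higher at 45 hpf ranged from 0 to 1, ionocyte genes called higher between tables from 2 to 6, and interactions called from 0 to 1. Where a genotype was left with 2 libraries, the spread was pooled across genotypes. The sign of atp1a1a.2 changed at 45 hpf under quantile normalization (0.0090). In the 4 dpf table atp1a1a.2 ranged from -0.25 to 0.49 and slc12a10.2 from -0.13 to 0.22 across left-out libraries.

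The values gave no sign that the replicate number paired the samples. Same-numbered deviations from the group means correlated at -0.31, -0.26 and -0.0099 at 45 hpf and at -0.15, -0.61 and -0.38 in the 4 dpf table. Whether same-numbered pools shared a cross was not tested. With the replicate block, 0 ionocyte genes and 0 further genes were called lower in the 4 dpf table, 2 further genes were called lower at 45 hpf, and 1 interaction, that of rhcga, was called.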

Other observations

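The genes whose expression followed foxi3b and trpv6 most closely were looked up as a description, among 10551 genes with a mean of at least 5 TPM, on log2(TPM + 1) after rescaling over 12 libraries. The 12 libraries share 2 tables, and the difference between tables carries much of any such likeness, so no test is given. For foxi3b the 5 genes were mlip, gys1, kbtbd12, nrap and hsc70, with Pearson r from 0.96 to 0.97 and Spearman rho from 0.90 to 0.96, and none of them was on the lists of ionocyte or marker genes. For trpv6 they were smu1b, cd68, znhit6, slc16a10 and nfkbiz, with Pearson r from 0.82 to 0.86 and Spearman rho from 0.75 to 0.89, at levels of trpv6 that were under 0.6 TPM in every library.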
